A study of Homo sapiens with 6 samples.

Results

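The 42 genes examined here encode the enzymes and transporters that build, sulfate and remodel chondroitin, dermatan and heparan sulfate, and they were taken by gene symbol from the 58735 genes of the deposited table. The list was chosen by the large rise of UST between the groups compared here, so its fold changes are given as a description and none of its p-values is reported. Of the 42 genes, 37 passed the filter on low counts and were tested among 15319 genes, and the other 5 are given by their counts. RNA was sequenced from AsPC-1 cells, a long-established human pancreatic cancer line, in 6 libraries. Vector cells (n = 3) carried an empty lentivirus, with a genotype labelled WT, and OE-MMP28 cells (n = 3) carried a lentivirus with the cDNA of MMP28, a secreted matrix metalloproteinase. The lentiviral lines were selected with puromycin, and whether a line was a pool or a single clone is not given in the sources used here. The labels do not say that the libraries of a group came from separate cultures, and p-values therefore measure only the spread between these samples, which may be technical.

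Glycosaminoglycans are long sugar chains attached to the core proteins of proteoglycans at the cell surface and in the matrix. In the Golgi a short linker is first built on a serine of the core protein, and the next sugar added then commits the chain to chondroitin or to heparan sulfate. Epimerases convert part of the glucuronic acid of the growing chain to iduronic acid, which turns chondroitin into dermatan sulfate, and sulfotransferases place sulfate groups that decide which growth factors, chemokines and proteases the chain can bind.

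The levels are FPKM as deposited, in which fragments are counted relative to the length of a gene and the size of its library. The fold changes are log2 ratios of OE-MMP28 over Vector fitted to the counts with edgeR, given with their standard error (SE), and a gene was called higher or lower at a Benjamini-Hochberg adjusted p under 0.05 over all genes tested. Total counts lay between 13633249 and 16691458 per library, and 3 counts, the limit that a count of 0 allows, corresponded to 0.180 to 0.220 CPM, a count relative to library size. Mitochondrial genes took between 8.80% and 14.8% of the counts. MMP28 itself stood at 5.17, 9.11 and 8.43 FPKM in the Vector libraries and at 13.1, 13.9 and 15.1 FPKM in the OE-MMP28 libraries. Its mean was 1.85 times as high with the lentivirus (log2 fold change 0.90, SE 0.19), and an exact two-sided permutation test gave p = 0.1, the smallest p that 3 libraries against 3 allow. All 6 epithelial markers were tested, with summed levels of 2657 to 3630 FPKM in Vector and 3558 to 4367 FPKM in OE-MMP28, KRT19 being called higher and CLDN4 lower. Of the fibroblast markers, COL1A2, COL3A1 and FAP had at most 3 counts in any library, whereas LUM, itself a keratan sulfate proteoglycan, reached 33.8 to 56.9 FPKM, and the summed list ran from 33.9 to 40.9 FPKM in Vector and from 39.2 to 57.0 FPKM in OE-MMP28. The macrophage list summed to at most 1.11 FPKM and the endothelial list to at most 0.293 FPKM, with PTPRC, CD163, CDH5 and KDR at or near 0. CD14 made up most of the macrophage sum, at 17 to 30 counts per library (0.569 to 1.04 FPKM), and VWF had 7 to 19 counts. Neither was called. PECAM1, an endothelial marker, was nevertheless called higher at very low counts (0, 4 and 4 in Vector, and 13, 21 and 30 in OE-MMP28). It passed the filter on low counts only through OE-MMP28 libraries, so nothing is read from that call.

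The stretches upstream of the RefSeq starts of 4 members are shown because the first 3 have the largest rises of the list and GLCE has the largest fall. Each is the 250 bases before the start of the gene in RefSeq on GRCh38.p14, read 5′ to 3′ on the strand of the gene, and the capitals mark GC boxes (GGGCGG, or CCGCCC on the other strand).
UST: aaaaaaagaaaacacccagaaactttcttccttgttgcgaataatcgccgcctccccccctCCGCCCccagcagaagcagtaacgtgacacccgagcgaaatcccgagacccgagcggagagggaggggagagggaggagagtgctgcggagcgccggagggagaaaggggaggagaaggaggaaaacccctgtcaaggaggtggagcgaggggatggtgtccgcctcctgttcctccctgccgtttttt
CHSY3: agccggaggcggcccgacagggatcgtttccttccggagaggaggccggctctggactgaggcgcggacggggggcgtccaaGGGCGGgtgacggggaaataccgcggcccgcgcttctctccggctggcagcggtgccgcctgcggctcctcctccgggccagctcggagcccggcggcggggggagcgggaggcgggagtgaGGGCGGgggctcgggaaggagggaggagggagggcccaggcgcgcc
DSEL: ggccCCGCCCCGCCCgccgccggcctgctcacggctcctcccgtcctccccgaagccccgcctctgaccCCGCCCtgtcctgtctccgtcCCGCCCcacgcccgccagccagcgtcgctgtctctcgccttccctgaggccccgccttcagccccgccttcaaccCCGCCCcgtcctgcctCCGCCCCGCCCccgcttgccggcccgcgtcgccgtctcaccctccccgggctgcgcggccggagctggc
GLCE: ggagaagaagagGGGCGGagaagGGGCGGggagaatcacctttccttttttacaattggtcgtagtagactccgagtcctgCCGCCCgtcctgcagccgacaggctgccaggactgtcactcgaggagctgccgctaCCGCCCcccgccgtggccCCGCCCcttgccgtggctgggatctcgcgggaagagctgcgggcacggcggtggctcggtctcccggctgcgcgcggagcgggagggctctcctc
The window of UST (chr6:148746780-148747029, plus strand) held 1 GC box, and the RefSeq start that follows it lay 298 bases upstream of the start of UST in GENCODE 29. CHSY3 (chr5:129904215-129904464, plus strand) held 2, DSEL (chr18:67516721-67516970, minus strand) held 7 and GLCE (chr15:69160385-69160634, plus strand) held 5. The DSEL window lay wholly inside DSEL as annotated in GENCODE 29 (chr18:67506582-67516980), so it is not upstream of that start. The end of the GLCE window ran past the GENCODE 29 start of GLCE (chr15:69160584). The GC content was 59.6% in the window of UST, 77.2% in that of CHSY3 and 68.8% in that of GLCE, and it was highest in that of DSEL.

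RefSeq windows were matched by symbol for 37 of the 42 members, 52 windows in all, and the missing entries were CSGALNACT1, EXT1, EXTL3, SULF1 and PAPSS2. A GC box lay in 42 of the 52 windows (80.8%), against 42.6% of all 35116 windows of the same length. Some members gave several windows that overlap, such as chr11:44095947-44096196 and chr11:44095948-44096197 for EXT2, so the windows are not independent. The windows compared were not limited to expressed genes. The median GC content was 69.8% in the member windows and 58.0% in all windows, and the median number of CpG dinucleotides was 25 against 11. TATAAA, on either strand, was found in 1 member window (1.92%), that of EXT2, and in 10.7% of all windows. TGANTCA, the letters of an AP-1 site, was found in 3 member windows (5.77%), those of CHST3, CHST14 and NDST1, and in 6.57% of all windows. These are matches of letters and no measure of binding.

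Before any comparison, the Vector libraries show which parts of the pathway these cells expressed. SULF2, an extracellular enzyme that removes 6-O-sulfate from finished heparan sulfate, was the highest member at a mean of 79.8 FPKM, followed by CHPF, a subunit of the chondroitin polymerase, at 61.0 FPKM. SLC35B2, which carries the sulfate donor PAPS into the Golgi, came next at 30.6 FPKM. In all, 9 members had a mean of at least 10 FPKM, 22 lay from 1 to under 10 FPKM and 11 lay under 1 FPKM. The order is coarse, since 30 of the 41 pairs of neighbours in it had overlapping Vector ranges. The lowest expressed members included both dermatan epimerases, DSE at 0.0636 FPKM and DSEL at 0.0305 FPKM. UST ranked 32nd in Vector, between CHST12 and CHST7, and 9th in OE-MMP28.

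Between the groups, 6 of the 37 tested members were called higher (UST, CHSY3, DSEL, XYLT1, B3GALT6 and HS3ST1) and 5 were called lower (GLCE, CSGALNACT2, EXTL2, CHST15 and CSGALNACT1). Over all genes tested, 11.7% were called higher and 11.6% lower, 23.4% in all, beside 29.7% of the members. Since the members were chosen with this comparison known, nothing is read from that difference. UST, CHSY3 and DSEL exceeded a log2 fold change of 1 among the called members, beside 7.38% of all genes. FPKM did not overlap between the groups for 18 of the 37 members, beside 38.1% of all genes tested. CHSY3, DSEL and CHST7 are among these members, although they passed the filter on low counts only through OE-MMP28 libraries. The median log2 fold change was 0.15 for the members and 0.014 for all genes tested. In RNA from a whole culture, fewer cells that express a gene and less of its RNA per cell cannot be told apart.

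**Figure D1:**
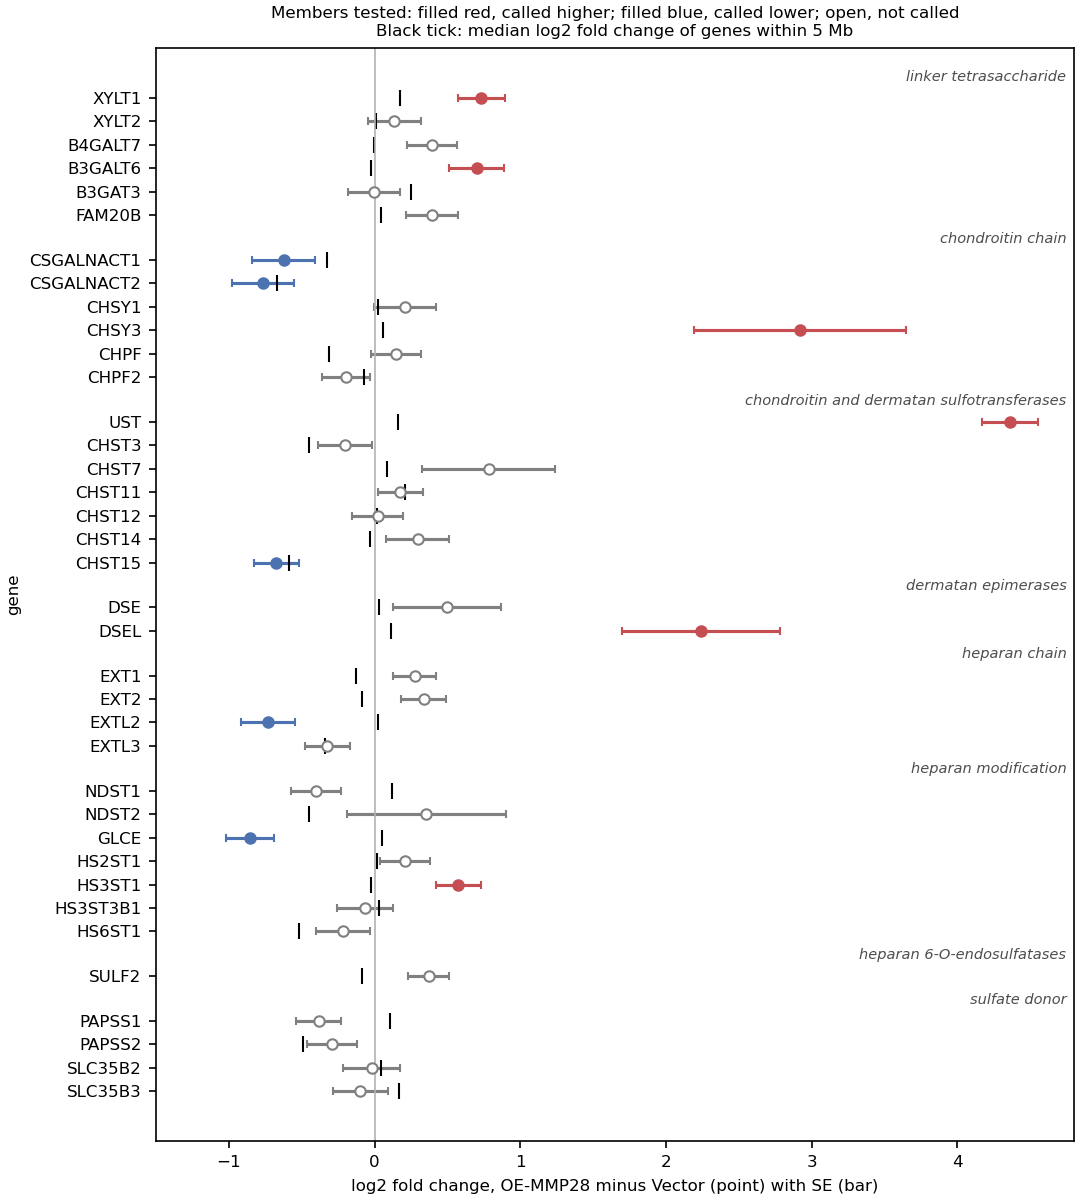
Log2 fold change of OE-MMP28 over Vector (horizontal axis) for the 37 tested members (vertical axis, grouped by role), with the SE as a bar and the median log2 fold change of genes within 5 Mb as a black tick; filled red points were called higher, filled blue points lower, and open points were not called. UST stands alone at 4.36, CHSY3 and DSEL follow with wide bars, and the ticks of CSGALNACT2 and CHST15 lie close to their own points.

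UST encodes the uronyl 2-O-sulfotransferase, which places sulfate on the uronic acid, mainly iduronic acid, of dermatan and chondroitin sulfate. The gene lies on the plus strand at chr6:148747328-149076990 (GRCh38, GENCODE 29). Its counts were 42, 34 and 37 in the Vector libraries and 865, 840 and 865 in the OE-MMP28 libraries. In FPKM these were 0.602, 0.551 and 0.550 against 11.99, 11.61 and 11.27. The OE-MMP28 libraries were close to each other and each far above every Vector library, with means of 0.568 ± 0.0296 FPKM (SD, n = 3) and 11.6 ± 0.360 FPKM (SD, n = 3). The fitted log2 fold change was 4.36 (SE 0.19), a 20.5-fold difference, and 12 of the 15319 genes tested had a larger one. UST was called higher under all 17 alternative settings. The list was chosen by this rise in the same libraries, so nothing is read from these calls. The antisense gene UST-AS1 shares 3 exon bases with it (0.0657% of its exon bases) and had at most 2 counts in any library.

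The rise was not shared by the genes around UST. Within 1 Mb of its start the annotation lists 33 other genes, of which 9 were tested, with log2 fold changes from -0.84 to 0.26 and a median of 0.071. ZC3H12D was the 1 neighbour called, and it was lower. TAB2, the nearest tested neighbour, had a log2 fold change of 0.15 (SE 0.16), and SASH1, on the other side at a similar distance, had -0.08 (SE 0.19).

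**Figure D2:**
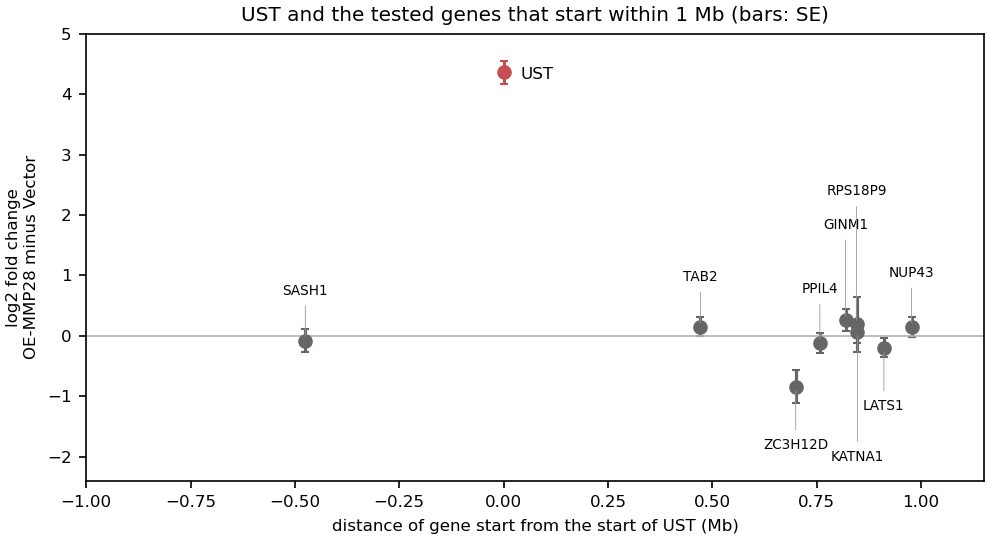
Log2 fold change of OE-MMP28 over Vector with its SE (vertical axis) against the distance of each gene start from that of UST in Mb (horizontal axis), for UST (red) and the 9 tested genes within 1 Mb (grey). UST lies at 4.36 and its neighbours between -0.84 and 0.26.

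No other sulfotransferase of chondroitin and dermatan sulfate was called higher. Of the 8 genes, 7 were tested, UST was called higher, CHST15 lower, and the remaining 5 were not called. CHST11, the main chondroitin 4-O-sulfotransferase of the list by level, stood at 22.1, 16.4 and 18.7 FPKM in Vector and at 22.1, 22.9 and 19.2 FPKM in OE-MMP28. These ranges overlapped (log2 fold change 0.18, SE 0.15). CHST15 adds a second sulfate, at carbon 6, to galactosamine that already carries one, giving the disulfated chondroitin sulfate E. It stood at 9.58, 11.8 and 9.72 FPKM in Vector and at 6.65, 6.72 and 5.97 FPKM in OE-MMP28, so that every OE-MMP28 library was below every Vector library. Its log2 fold change was -0.67 (SE 0.16). The tested genes within 5 Mb of CHST15 had a median of -0.59, and offset by that median the log2 fold change of CHST15 was -0.09 and no longer called.

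CHST3 and CHST7, the chondroitin 6-O-sulfotransferases, had log2 fold changes of -0.20 (SE 0.18) and 0.78 (SE 0.46). The counts of CHST7 were low, 7 to 9 in Vector and 13 to 17 in OE-MMP28, and did not overlap. CHST7 passed the filter on low counts only through OE-MMP28 libraries. Its own change thus decided whether it was tested, and nothing is read from its fold change or from the lack of overlap. CHST12, another chondroitin 4-O-sulfotransferase, and CHST14, its dermatan counterpart, had log2 fold changes of 0.02 and 0.30. CHST13 was not tested, with counts of 2, 2 and 3 against 4, 3 and 8.

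Summed over the 8 sulfotransferases, the level was 35.1 to 39.0 FPKM in Vector and 43.7 to 49.0 FPKM in OE-MMP28. UST supplied 1.54% ± 0.0229 (SD, n = 3) of that sum in Vector and 25.0% ± 1.12 (SD, n = 3) in OE-MMP28. The share of CHST15 was 28.2% ± 3.97 (SD, n = 3) in Vector and 13.8% ± 0.256 (SD, n = 3) in OE-MMP28. CHST11 remained the largest contributor in every library, at 51.7% ± 5.92 (SD, n = 3) and 45.9% ± 1.71 (SD, n = 3). In the OE-MMP28 libraries UST thus had the second highest transcript level of the list and in Vector the sixth, although these are shares of RNA and not of enzyme activity.

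**Figure D3:**
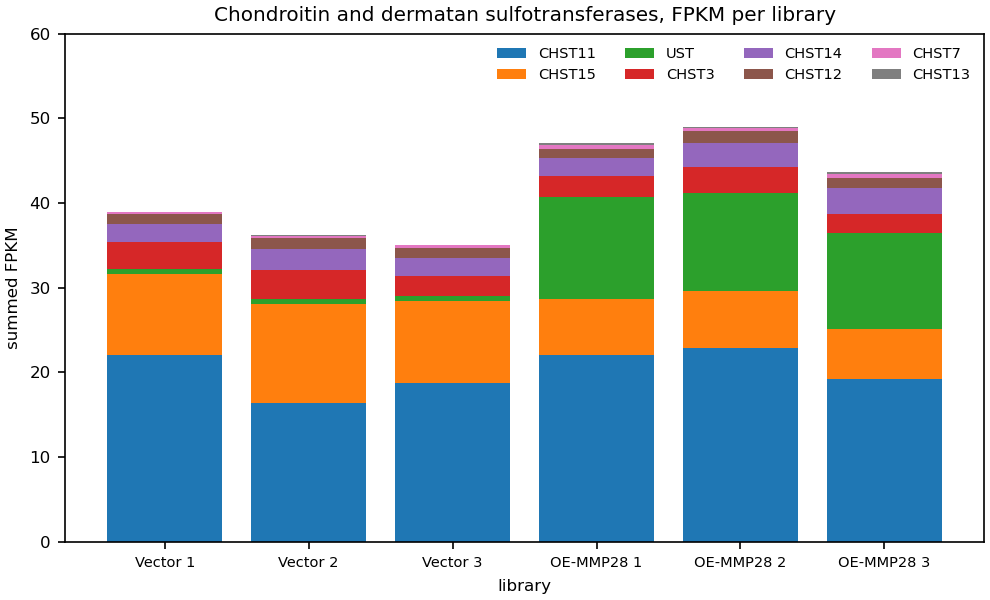
FPKM of the 8 chondroitin and dermatan sulfotransferases, stacked to their sum (vertical axis) in each of the 6 libraries (horizontal axis). UST (green) is a thin layer in the Vector libraries and the second thickest layer in the OE-MMP28 libraries, while the CHST15 layer (orange) is thinner there than in Vector.

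The dermatan epimerases supply the iduronic acid on which UST mainly acts, and both were expressed at very low levels. DSEL, the epimerase-like relative of DSE, had counts of 9, 2 and 2 in Vector and 29, 19 and 21 in OE-MMP28. Its FPKM was 0.0618, 0.0155 and 0.0142 against 0.192, 0.126 and 0.131, with no overlap between the groups. The fitted log2 fold change was 2.24 (SE 0.54), and the ratio of the summed counts, scaled to library size, was 4.74 with an exact 95% interval of 2.60 to 9.34 that covers counting error only. DSEL reached the minimum of 10 counts only in OE-MMP28 libraries, so its own change decided whether it was tested. The call was lost with limma on log2(FPKM + 1), a scale on which values this low differ by little (0.16). AC110597.3 covers 34.7% of the exon bases of DSEL on the opposite strand, and its exons lie wholly within those of DSEL. It had no counts in any library, but whether the counting used strand is not given, and without strand its reads and those of DSEL there cannot be told apart, so that 0 says nothing about antisense reads and DSEL may be undercounted.

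DSE had counts of 19, 18 and 16 in Vector and 22, 32 and 29 in OE-MMP28. Its FPKM was 0.0647, 0.0694 and 0.0566 against 0.0725, 0.105 and 0.0898. The groups did not overlap, yet the log2 fold change of 0.50 (SE 0.37) was not called.

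The linker tetrasaccharide is shared by all these chains, and 2 of its 6 enzymes were called higher and none lower. XYLT1, one of the xylosyltransferases that start the linker, stood at 2.63, 2.71 and 2.82 FPKM in Vector and at 4.52, 5.07 and 3.89 FPKM in OE-MMP28. The groups did not overlap, the log2 fold change was 0.73 (SE 0.16), and the call held under all 17 alternatives. XYLT2, which catalyses the same step, had a log2 fold change of 0.14 (SE 0.18).

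B3GALT6, which adds the second galactose, stood at 7.66, 6.62 and 5.57 FPKM in Vector and at 8.26, 11.3 and 12.4 FPKM in OE-MMP28. The groups did not overlap, but OE-MMP28 replicate 1 was much closer to the Vector libraries than the other two were. Its log2 fold change of 0.70 (SE 0.19) became 0.59 without Vector replicate 3, 0.64 without OE-MMP28 replicate 2 and 0.58 without OE-MMP28 replicate 3, and was not called in any of these 3 fits. B3GAT3, which completes the linker with glucuronic acid and was its highest gene in Vector, stood at 11.66, 12.19 and 11.99 FPKM there and at 9.35, 11.4 and 14.6 FPKM in OE-MMP28. Its OE-MMP28 libraries fell on both sides of the Vector range. B4GALT7, which adds the first galactose, and FAM20B, the kinase that phosphorylates the xylose, had log2 fold changes of 0.40 (SE 0.17) and 0.39 (SE 0.18) and were not called. The summed level of the linker genes was 37.3 to 41.2 FPKM in Vector and 44.4 to 52.3 FPKM in OE-MMP28.

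**Figure D4:**
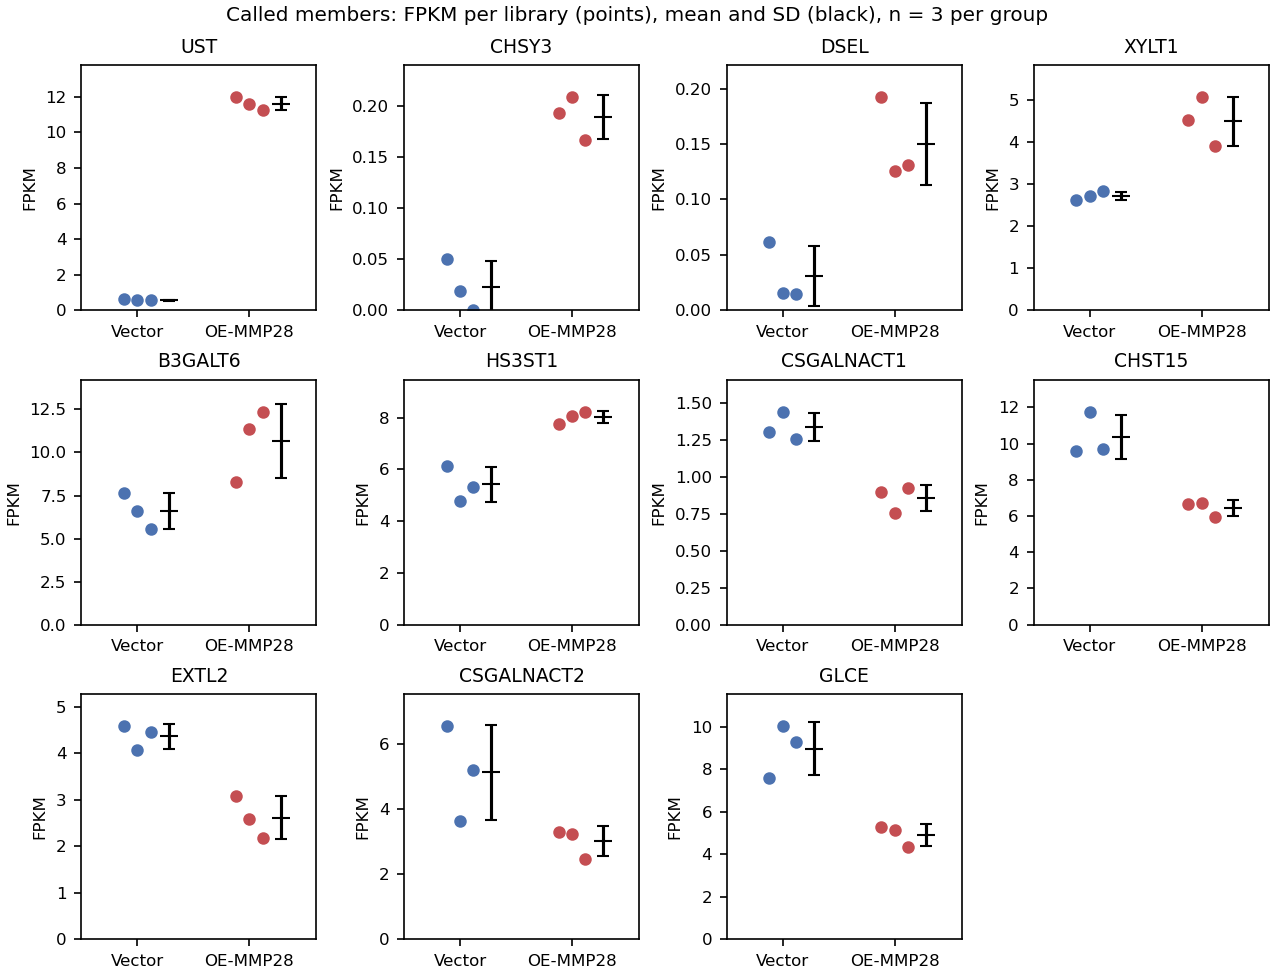
FPKM (vertical axes, each from 0) of the 11 called members in each library, with the mean and SD (n = 3) in black, Vector in blue and OE-MMP28 in red. In all 11 panels the 3 Vector and the 3 OE-MMP28 libraries do not overlap, but the gap is narrow for B3GALT6 and CSGALNACT2 and wide for UST. The 11 genes were picked because they were called, and FPKM did not overlap between the groups for 38.1% of all genes tested, so nothing is read from the lack of overlap.

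Among the 6 chondroitin chain enzymes, both of the N-acetylgalactosaminyltransferases that start the chain were called lower and 1 polymerase gene was called higher. CSGALNACT2 stood at 6.54, 3.63 and 5.20 FPKM in Vector and at 3.31, 3.23 and 2.47 FPKM in OE-MMP28. Vector replicate 2 was only a little above the highest OE-MMP28 library. The log2 fold change was -0.76 (SE 0.21), and it was -0.55 without Vector replicate 1 and -0.64 without OE-MMP28 replicate 3, neither of them called. Genes within 5 Mb had a median of -0.67, and offset by it the log2 fold change was -0.10 and not called.

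CSGALNACT1 kept its call in 7 of the 17 alternatives, the fewest of the called members. Its FPKM was 1.30, 1.44 and 1.26 in Vector and 0.894, 0.757 and 0.921 in OE-MMP28, without overlap. The log2 fold change of -0.62 (SE 0.22) lay between -0.56 and -0.68 when any 1 of the 6 libraries was left out, and none of these 6 fits called it. The offset by the local median of -0.32 gave -0.30.

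CHSY3, a chondroitin synthase, had counts of 3, 1 and 0 in Vector and 12, 13 and 11 in OE-MMP28. Its FPKM was 0.0498, 0.0188 and 0 against 0.193, 0.208 and 0.166. The summed counts, 4 against 36, gave a ratio of 8.03 after scaling to library size, with an exact 95% interval of 2.88 to 31.1, and the fitted log2 fold change was 2.92 (SE 0.73). CHSY3 reached the minimum of 10 counts only in OE-MMP28 libraries. It was not tested without OE-MMP28 replicate 1, without OE-MMP28 replicate 2 or at a minimum of 1 CPM. Whether it was tested under a filter thus depends on its own change, and nothing is read from those calls. With no filter it was called at a log2 fold change of 2.92, which rests on the same 4 counts over the Vector libraries. It stayed far below its relative CHSY1, which stood at 1.68 FPKM in Vector and 1.94 FPKM in OE-MMP28 (log2 fold change 0.21, SE 0.21). CHPF, the most abundant chondroitin polymerase subunit, stood at 61.0, 58.9 and 63.2 FPKM in Vector and at 47.8, 79.1 and 73.6 FPKM in OE-MMP28. The OE-MMP28 libraries again fell on both sides of the Vector range (log2 fold change 0.15, SE 0.17). CHPF2 had a log2 fold change of -0.20 (SE 0.16).

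The heparan sulfate chain is polymerised by EXT1 and EXT2, and neither was called. EXT2 stood at 8.736, 8.398 and 8.318 FPKM in Vector and at 11.6, 11.3 and 9.11 FPKM in OE-MMP28, without overlap (log2 fold change 0.34, SE 0.16). EXT1 was similar in level and in change (0.28, SE 0.15). EXTL2, an N-acetylhexosaminyltransferase that acts on the phosphorylated linker, stood at 4.59, 4.07 and 4.46 FPKM in Vector and at 3.09, 2.60 and 2.18 FPKM in OE-MMP28. It was called lower, with a log2 fold change of -0.73 (SE 0.18), under all 17 alternatives, and the median of the genes within 5 Mb was 0.02. AC104506.1, on the opposite strand, covers 8.87% of the exon bases of EXTL2 and lies wholly within them, so with the use of strand not given its count of 0 says nothing about antisense reads. EXTL3, which adds the first N-acetylglucosamine of the chain, had a log2 fold change of -0.32 (SE 0.15) beside a local median of -0.34. EXTL1 was not tested, with no counts in Vector and 0, 2 and 1 in OE-MMP28.

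Heparan sulfate is then modified in sequence, and here 1 of 7 tested genes was called higher and 1 lower. GLCE, the epimerase that converts glucuronic to iduronic acid in heparan sulfate, stood at 7.61, 10.03 and 9.27 FPKM in Vector and at 5.27, 5.16 and 4.33 FPKM in OE-MMP28. Every OE-MMP28 library was below every Vector library. The log2 fold change was -0.86 (SE 0.16), a 1.81-fold lower level, with a local median of 0.05 and a call under all 17 alternatives. Of the 3 epimerases that make iduronic acid, GLCE was called lower from 8.97 FPKM in Vector and DSE was not called. DSEL was called higher from 13 counts over the Vector libraries, but it passed the filter only through OE-MMP28 libraries, so nothing is read from its call.

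HS3ST1, the 3-O-sulfotransferase known for making the antithrombin-binding site, stood at 6.15, 4.78 and 5.33 FPKM in Vector and at 7.76, 8.08 and 8.23 FPKM in OE-MMP28. The groups did not overlap, and the log2 fold change was 0.58 (SE 0.16). It was 0.57 without Vector replicate 3 and 0.56 without OE-MMP28 replicate 2, not called in either fit. NDST1, the main N-deacetylase and N-sulfotransferase of these cells by level, had a log2 fold change of -0.40 (SE 0.17) with overlapping groups. HS2ST1, which adds 2-O-sulfate to iduronic acid in heparan sulfate as UST does in dermatan sulfate, had a log2 fold change of 0.21 (SE 0.17).

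The remaining heparan genes were low or carry reads that may be shared with other genes. NDST2 had 3 to 14 counts in any library, and AC022400.6 overlaps 82.9% of those exon bases in the same orientation, so its value is uncertain. HS6ST1 had a log2 fold change of -0.21 (SE 0.19), and 15.1% of its 50-base words also occur in its pseudogene HS6ST1P1. HS3ST3B1 had -0.06 (SE 0.19) and shares 9.78% of its words with HS3ST3A1, which had at most 4 counts and was not tested. HS6ST2 had no counts in any library.

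The 2 extracellular endosulfatases stood far apart in level. SULF2 stood at 73.8, 87.1 and 78.5 FPKM in Vector and at 104, 101 and 102 FPKM in OE-MMP28. It was the highest member in both groups, and its OE-MMP28 libraries all lay above the Vector libraries. With a log2 fold change of 0.37 (SE 0.14) it was the member closest to being called without passing, and it was called in 4 of the 17 alternatives, among them the fit without Vector replicate 2 (0.44). SULF1 had no counts in any library.

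No gene that makes or carries the sulfate donor was called. SLC35B2 stood at 28.5, 41.7 and 21.6 FPKM in Vector and at 25.9, 34.0 and 29.8 FPKM in OE-MMP28, so that its Vector libraries spread more widely than the groups differed. The synthases PAPSS1 and PAPSS2 had log2 fold changes of -0.38 (SE 0.16) and -0.29 (SE 0.17), and the second Golgi transporter SLC35B3 had -0.10 (SE 0.19). Over all roles, the 26 tested members that were not called had log2 fold changes from -0.40 to 0.78, with 15 above 0 and 11 below, and SEs from 0.139 to 0.546. The value of 0.78 is that of CHST7, which passed the filter on low counts only through OE-MMP28 libraries.

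The rest of the pathway was followed in 79 further genes in 7 lists, of which 57 were tested, 12 called higher and 13 lower. These lists were drawn up with results of these data known, and their counts are a description beside the 11.7% and 11.6% of all genes. The adjusted p-values of their genes are likewise given as a description and not as support. Of 15 other carbohydrate sulfotransferases 4 were tested. CHST2 and CHST4, which sulfate N-acetylglucosamine of glycoproteins rather than glycosaminoglycan chains built on xylose, were called higher. CHST2 stood at 5.02, 3.52 and 3.35 FPKM in Vector and at 9.98, 12.7 and 12.6 FPKM in OE-MMP28, with a log2 fold change of 1.58 (SE 0.19, edgeR Benjamini-Hochberg adjusted p = 6e-06) beside a local median of 0.70. CHST4 had a log2 fold change of 1.01 (SE 0.22, edgeR adjusted p = 0.00214). CHST10, the HNK-1 sulfotransferase, was called lower at -0.83 (SE 0.22, edgeR adjusted p = 0.0105), but not without OE-MMP28 replicate 2 (-0.83) or offset by its local median of -0.50 (-0.34). B3GAT1, a relative of the linker enzyme B3GAT3 that makes the HNK-1 epitope, had a log2 fold change of 1.91 (SE 0.42, edgeR adjusted p = 0.00243) at 8 to 12 counts in Vector and 28 to 63 counts in OE-MMP28. The Vector library at 8 counts was under the minimum of 10, so B3GAT1 passed the filter only with the help of OE-MMP28 libraries. Its call was lost with limma on log2(FPKM + 1) (0.21). PXYLP1, the phosphatase that removes the phosphate FAM20B places on the linker xylose, had a log2 fold change of 1.13 (SE 0.26, edgeR adjusted p = 0.00411), and 0.48, not called, when offset by its local median of 0.66.

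Precursor genes were mixed, with 2 of 12 tested genes of sugar nucleotide supply called higher and 2 lower. GFPT1, the rate-limiting enzyme of the hexosamine pathway, stood at 19.3, 14.7 and 16.3 FPKM in Vector and at 8.29, 7.97 and 5.69 FPKM in OE-MMP28. Its log2 fold change was -1.18 (SE 0.17, edgeR adjusted p = 4.39e-05) beside a local median of -0.50. GNPNAT1, which acts later in the same pathway, had a log2 fold change of 0.92 (SE 0.20, edgeR adjusted p = 0.00227), and 0.30, not called, when offset by its local median of 0.62. UGDH, which makes UDP-glucuronic acid, was called lower at -0.59 (SE 0.19, edgeR adjusted p = 0.0309), but not without Vector replicate 1 (-0.30), OE-MMP28 replicate 2 (-0.61) or OE-MMP28 replicate 3 (-0.46). Of the 6 tested genes of sulfate uptake and donor clearance, SLC26A2, a sulfate transporter of the cell surface, was the only one called. It was lower at -0.64 (SE 0.21, edgeR adjusted p = 0.0299), but not called without Vector replicate 1 (-0.49), OE-MMP28 replicate 2 (-0.61) or OE-MMP28 replicate 3 (-0.58).

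Hyaluronan is the glycosaminoglycan that is made without a core protein, a linker or sulfate, and 5 of its 6 tested genes were called. Over all genes tested 23.4% were called. The list was drawn up with results of these data known, so nothing is read from its count. HAS3, a hyaluronan synthase, stood at 33.45, 19.96 and 22.28 FPKM in Vector and at 5.74, 6.58 and 6.30 FPKM in OE-MMP28. HAS2, another synthase, stood at 23.5, 10.5 and 16.9 FPKM in Vector and at 4.69, 4.56 and 3.80 FPKM in OE-MMP28. All OE-MMP28 libraries were below all Vector libraries for both, with log2 fold changes of -2.01 (SE 0.18, edgeR adjusted p = 2.36e-07) for HAS3 and -1.95 (SE 0.22, edgeR adjusted p = 4.22e-06) for HAS2. CEMIP, a protein that degrades hyaluronan, had a log2 fold change of -1.72 (SE 0.28, edgeR adjusted p = 0.000194). CD44, the main hyaluronan receptor, was called higher, with a log2 fold change of 0.78 (SE 0.14, edgeR adjusted p = 0.000585). CEMIP2, a cell-surface relative of CEMIP, was called higher at 0.44 (SE 0.15, edgeR adjusted p = 0.0375), but in only 7 of the 17 alternatives. Among other settings, the call was lost without Vector replicate 1 (0.41), Vector replicate 3 (0.43), OE-MMP28 replicate 1 (0.37) or OE-MMP28 replicate 2 (0.37). HMMR, another hyaluronan receptor, was not called.

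**Figure D5:**
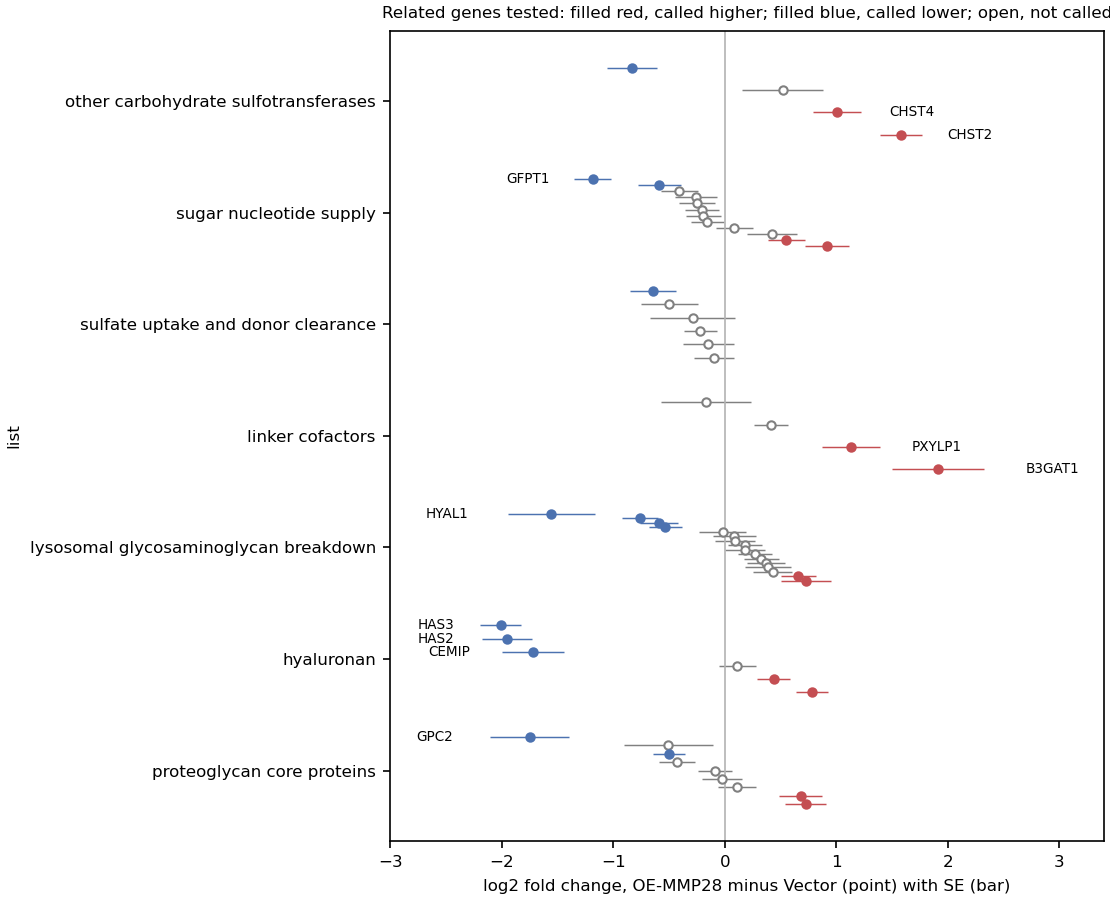
Log2 fold change of OE-MMP28 over Vector with its SE (horizontal axis) for the 57 tested related genes in 7 lists (vertical axis), filled red when called higher, filled blue when called lower and open when not called. Names are given past a log2 fold change of 1 in either direction, and HAS3, HAS2 and CEMIP form the group farthest to the left.

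Of the 16 genes of lysosomal breakdown 2 were called higher and 4 lower. HYAL1, a lysosomal hyaluronidase, had a log2 fold change of -1.56 (SE 0.39, edgeR adjusted p = 0.00648) at 24 to 37 counts in Vector and 10 to 15 counts in OE-MMP28. HGSNAT, which acetylates glucosamine during heparan sulfate breakdown, was lower (-0.76, SE 0.16, edgeR adjusted p = 0.00216), and it was -0.44 and not called when offset by its local median of -0.32.

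Among 17 core proteins that carry the chains 9 were tested, 2 called higher and 2 lower. GPC2, a glypican, had a log2 fold change of -1.75 (SE 0.35, edgeR adjusted p = 0.00142). SDC1, syndecan-1, stood at 79.4, 75.6 and 68.2 FPKM in Vector and at 45.6, 56.4 and 54.3 FPKM in OE-MMP28, with a log2 fold change of -0.50 (SE 0.15, edgeR adjusted p = 0.0181) beside a local median of -0.56, and offset by that median it was not called. HSPG2, perlecan, stood at 19.4, 23.1 and 19.9 FPKM in Vector and at 27.5, 46.5 and 28.1 FPKM in OE-MMP28. Its log2 fold change of 0.73 (SE 0.18, edgeR adjusted p = 0.00675) became 0.42, not called, without OE-MMP28 replicate 2, the library with the highest value. AGRN, agrin, was also called higher, at 0.68 (SE 0.19, edgeR adjusted p = 0.015), and lost the call at 0.57 without Vector replicate 3, 0.44 without OE-MMP28 replicate 2 and 0.68 without OE-MMP28 replicate 3. The most abundant core protein was VCAN, versican, at 101 to 149 FPKM over the 6 libraries, with a log2 fold change of -0.09 (SE 0.15).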

How the data were processed

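RNA-seq of AsPC-1 cells covered 3 Vector and 3 OE-MMP28 libraries, grouped by their labels. The authors deposited whole-number read counts per gene and FPKM (scaled by gene length and library) on GENCODE 29 and GRCh38. Per the labels, HISAT2 2.0.5 and featureCounts 1.5.0-p3 were used on NEBNext Ultra libraries. Strand use and the handling of reads with several matches are not given in the sources used here. The fold-change and p-value columns of the authors' own comparison were not used, and 0 per-sample columns were left unmapped.

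Counts were fitted with edgeR 4.0.16 in R 4.3.3 (TMM, filterByExpr set to 10 counts minimum and 15 in total, quasi-likelihood test, group as the only term), with Benjamini-Hochberg adjustment over the 15319 genes tested. The study's methods name limma. The SE was the absolute log2 fold change divided by the square root of F. The script was tested on simulated data. Local medians were taken over the other tested genes starting within 5 Mb. Members and lists were chosen with earlier results of these data known. All members are accounted for, with values in every library at least for those called past a log2 fold change of 1 and for the highest in Vector of each role, and related genes could be named when called, at most 5 per list. VCAN, HMMR and the markers named fall outside that rule and were chosen after their values were seen. The 17 alternatives were leaving out each library, the replicate number as a block, RLE or upper-quartile scaling, DESeq2 1.42.0, limma 3.58.1 (voom, or with trend on log2(FPKM + 1) and log2(FPKM + 0.1)), no filter or at least 1 CPM in 3 libraries, removal of mitochondrial genes, and an offset by the local median. Intervals and count limits cover counting error only, since the reads carry no molecular identifiers and are not independent molecules.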

Additional observations from a re-analysis of the deposited data

How the results depend on the processing

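Of the 11 called members, UST, XYLT1, EXTL2 and GLCE kept their call in all 17 alternatives. Nothing is read from that for UST, whose rise chose the list. CHSY3 was not tested in 3 of the alternatives, where it failed the filter that it passes only through OE-MMP28 libraries. Nothing is read from its calls in the rest. With each library left out in turn, the members called higher numbered 3 to 7 (6 with all libraries), those called lower 3 to 4 (5 with all libraries), the related genes called higher 7 to 12 and lower 8 to 14, all genes called higher 985 to 1916 and all genes called lower 1044 to 1949. The lowest of these counts came without OE-MMP28 replicate 2, namely 3 members higher, 7 related genes higher, 8 related genes lower, 985 genes higher and 1044 genes lower, except that members lower fell to 3 without Vector replicate 1 and without OE-MMP28 replicate 3. Without Vector replicate 3 the genes called higher numbered 1136. Limma on log2(FPKM + 0.1) called 3 members lower, and limma on log2(FPKM + 1) called 7 related genes higher. The local-median offset left 8 related genes called lower and 1135 of all genes called higher. Signs changed for genes near 0. B3GAT3 ranged from -0.20 to 0.13 over the fits that left out 1 library, and was 0.00785, 0.13 and 0.00582 without Vector replicate 2, OE-MMP28 replicate 1 and OE-MMP28 replicate 2. CHPF over those fits was lowest without OE-MMP28 replicate 2 (-0.00684) and highest without OE-MMP28 replicate 1 (0.33). The local-median offset gave 0.46 for CHPF and -0.029 for CHST11. SLC35B2 ranged from -0.22 to 0.27 over those fits, the latter without Vector replicate 2, and was 0.059 without OE-MMP28 replicate 1, 0.018 with the replicate block, 0.022 with voom, 0.00761 with limma on log2(FPKM + 1) and 0.00909 on log2(FPKM + 0.1). Of the called genes named, SDC1 changed sign, at 0.062 with the local-median offset. The causes of these changes were not tested. Libraries with the same replicate number did not deviate together across genes (r of 0.017, 0.0080 and -0.088 for numbers 1, 2 and 3). A shared effect on few genes would not show in r, and the labels do not say whether such libraries were handled together. The replicate block called 1844 genes higher and 1841 lower, against 1795 and 1784 without it, and 6 members higher and 4 lower, CSGALNACT1 being the 1 lost. At these depths CHSY3 and DSEL rest on 4 and 13 counts over the Vector libraries, and 5 members could not be tested.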
